A study of Mus musculus with 36 samples.

Results

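The 6 libraries described here are the control cultures of day 5, 3 of a macrophage course and 3 of a granulocyte course, out of 36 libraries in the series. They were chosen by their labels alone, and the courses were joined by gene symbol over 24411 genes. All came from hematopoietic stem and progenitor cells of mouse bone marrow with the wild-type genotype. These had grown for 3 days in medium with horse serum, stem cell factor (SCF) and interleukin 3 (IL-3), and the cultures were then divided. Cells of the macrophage course spent the next 2 days in granulocyte-macrophage colony-stimulating factor (GM-CSF) and macrophage colony-stimulating factor (M-CSF). Cells of the granulocyte course spent the same 2 days in SCF, IL-3 and granulocyte colony-stimulating factor (G-CSF). At day 5 the granulocyte course therefore still received the expansion cytokines and the macrophage course did not, so the part of any single cytokine in a difference cannot be told apart. For comparison, 3 control libraries of day 3 and 3 of each course at day 7 were used, when the courses had spent 2 further days in M-CSF alone or G-CSF alone. In addition, 3 libraries of each course at day 5 from conditional Taf1 knockout mice, the mutant of the study, were used. The labels name neither the Cre driver nor the age of the mice, and do not say whether the replicates came from separate mice, so each p-value rests on sample-to-sample spread alone, and that spread may be technical.

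M-CSF acts through the receptor Csf1r and drives monocytes and macrophages, while G-CSF acts through Csf3r and drives the production and release of neutrophils. GM-CSF and IL-3 signal through related receptors that share a common beta chain and support granulocytes and macrophages alike. SCF acts through Kit and is, with IL-3, the classical factor pair for mast cells and basophils. Neutrophils are made in waves: primary (azurophil) granule proteins such as myeloperoxidase come first, secondary and tertiary granule proteins such as lactoferrin later, and chemotactic receptors such as Cxcr2 last. Macrophages are known by the surface antigen Adgre1 (F4/80), Csf1r, scavenger receptors and complement C1q.

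After 2 days, of 11119 genes tested, 382 differed (3.44%; limma, Benjamini-Hochberg adjusted p under 0.05), 130 higher in the macrophage course (1.17%) and 252 higher in the granulocyte course (2.27%). Values are TPM, transcript abundances scaled for length and library total, and differences are macrophage minus granulocyte on the log2(TPM + 1) scale, which understates the change of genes near 1 TPM. The median difference over all tested genes was -0.01, and the median size, regardless of sign, was 0.10. Of the genes that passed the threshold, 137 differed by at least 1 on the log2 scale, 32 upward in the macrophage course and 105 upward in the granulocyte course. With median-of-ratios scaling 178 genes of any size passed upward in the macrophage and 249 in the granulocyte course, in place of 130 and 252. Those that differed by at least 1 numbered 35 and 99.

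Replicate 1 stood apart from replicates 2 and 3 in both courses. Across genes, the Pearson correlation of log2(TPM + 1) was 0.986 between macrophage and granulocyte library 1 and 0.973 between macrophage libraries 1 and 2, whereas macrophage libraries 2 and 3 reached 0.995. The calprotectin genes S100a8 and S100a9 made up 4.93% and 5.49% of all TPM in the libraries numbered 1 and 13.9% to 14.5% in the others. Of the sum of squares among the 6 libraries, the course took 25.66%, the replicate number 62.22% and the rest 12.12%. With the replicate number as a block, 1520 genes passed (13.7%), 623 higher in the macrophage course (5.6%) and 897 higher in the granulocyte course (8.07%), and they held all 382 of the unblocked fit. Without replicate 1 of either course 806 of 10986 genes passed (7.34%), 341 higher in the macrophage (3.1%) and 465 in the granulocyte course (4.23%), and 334 of the 806 were among the 382. The unblocked counts also moved when 1 library was left out: 201 and 184 genes passed without macrophage library 2 or 3, of which 194 and 180 were among the 382, and 164 and 190 passed without granulocyte library 2 or 3, of which 164 and 188 were. The block pairs same-numbered libraries of the courses and leaves 4 residual degrees of freedom. The labels do not give this pairing, so p-values from that fit hold only if it is right. Counts and adjusted p-values from the fit with the block are called blocked below. Every list count below is to be read against these shares of all genes in the same direction and fit. A fit of the 6 libraries alone, without the knockout libraries, passed 158 genes, and 42 named genes lost their call in it, of which only some are marked below. Taf1 itself was not past the threshold between the courses (-0.10 ± 0.09 SE, adjusted p = 0.837), with 12.6, 13.0 and 13.8 TPM in the macrophage libraries and 16.3, 13.3 and 12.9 in the granulocyte libraries.

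**Figure D1:**
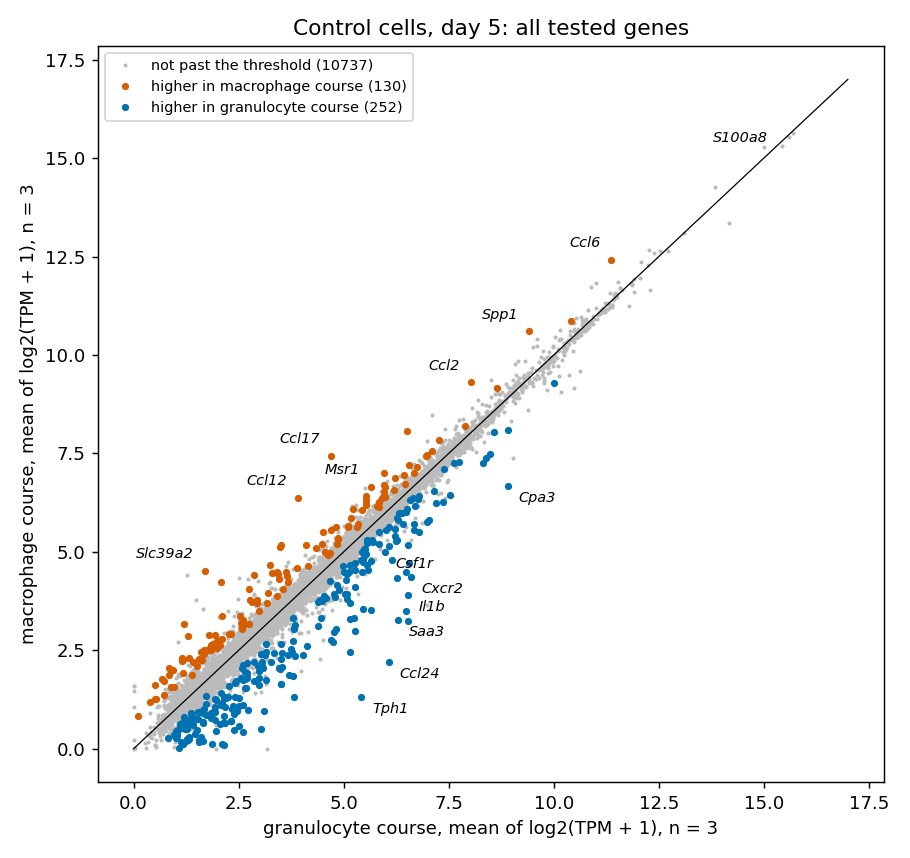
Mean log2(TPM + 1) of the 3 granulocyte libraries (x axis) against the 3 macrophage libraries (y axis) of day 5 for the 11119 tested genes. Orange points are the 130 genes higher in the macrophage course and blue points the 252 higher in the granulocyte course; most genes lie on the line of equal levels.

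The labels were compared with marker genes of each cell type. Markers of both macrophages and neutrophils were present in either course. The summed level of 10 macrophage markers was 801 to 1019 TPM in the macrophage libraries and 669 to 962 TPM in the granulocyte libraries, so the ranges overlapped. Neutrophil markers, of which 10 of 11 were in the tables, summed to between 54880 and 160400 TPM in the macrophage course and between 59240 and 156700 TPM in the granulocyte course. In both courses the lowest sum was in library 1. Most of each neutrophil sum was S100a8 and S100a9, so its overlap is mainly that of these genes. Among the other neutrophil markers Cxcr2 and Csf3r did not overlap between the courses, as given below, while Ltf, Camp, Ngp, Mmp8, Mmp9 and Retnlg did. The F4/80 gene Adgre1 stood at 171, 135 and 134 TPM in the macrophage libraries against 137, 112 and 114 TPM in the granulocyte libraries, a difference of 0.27 ± 0.11 SE (limma adjusted p = 0.311, and 0.0126 with the replicate block). The mannose receptor Mrc1 gave 234, 186 and 190 TPM against 268, 160 and 157 TPM (0.10 ± 0.36 SE, adjusted p = 0.989). The lysosomal glycoprotein Cd68 gave 439, 323 and 312 TPM against 386, 264 and 249 TPM, which overlapped (adjusted p = 0.796, blocked 0.0326). Lymphoid markers were at or near 0 TPM, with no library above 0.05 TPM in their sum.

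The sum of 6 mast cell and basophil markers did separate the courses, with sums of 239 to 414 TPM in the macrophage libraries and 926 to 1090 TPM in the granulocyte libraries, against a day 3 mean of 1365 TPM. Erythroid markers summed to 1.97 to 8.83 TPM and 15.1 to 21.9 TPM, with Hbb-bs at 0 TPM in all 6 libraries, so that every granulocyte library was above every macrophage library. Megakaryocyte markers overlapped (472 to 824 and 716 to 854 TPM), as did eosinophil markers (840 to 1465 and 733 to 1547 TPM) and promyelocyte markers (2402 to 3041 and 2478 to 3923 TPM). Fewer cells of a type and less RNA per cell cannot be told apart in these bulk samples, and the part of cell composition in the differences below was not tested.

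**Figure D2:**
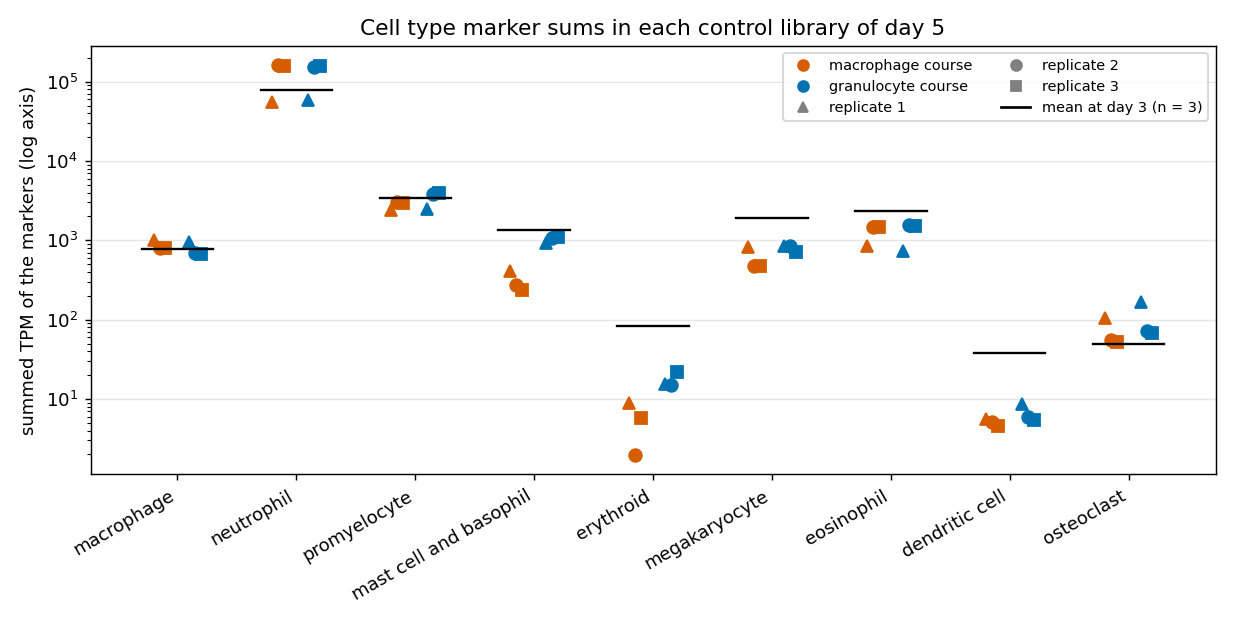
Summed TPM (log axis) of fixed marker genes for 9 cell types in each control library of day 5, with orange for the macrophage and blue for the granulocyte course, symbols for replicates 1 to 3, and a black line at the mean of the 3 day 3 libraries. Macrophage and neutrophil marker sums of the courses overlap, whereas mast cell and basophil sums lie at 239 to 414 TPM and 926 to 1090 TPM. The neutrophil sums are mostly S100a8 and S100a9.

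Receptors of both lineage cytokines were higher in the granulocyte course. Of 7 receptor genes, 2 were higher in the granulocyte course and 0 in the macrophage course (median -0.30, against -0.01 over all genes tested); the block added Csf2rb. Csf1r, the M-CSF receptor, stood at 30.03, 30.6 and 32.9 TPM in the macrophage libraries and at 65.4, 62.1 and 58.2 TPM in the granulocyte libraries. No macrophage library reached the lowest granulocyte library, and the difference was -0.97 ± 0.11 SE (limma adjusted p = 0.000811). At day 3 Csf1r had a mean of 66.9 ± 6.69 TPM (SD, n = 3), so the granulocyte course sat near the day 3 level (-0.11 relative to day 3, adjusted p = 0.441) and the macrophage course below it (-1.07, adjusted p = 9.5e-05). These comparisons share the day 3 libraries. By day 7 Csf1r averaged 204 ± 38.8 TPM in the macrophage and 258 ± 53.6 TPM in the granulocyte course.

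Csf3r, the G-CSF receptor, was read at 28.4, 18.6 and 19.1 TPM in the macrophage course and at 47.0, 39.1 and 40.4 TPM in the granulocyte course. The groups did not overlap, and the difference was -0.93 ± 0.20 SE (adjusted p = 0.0276, blocked 0.000438). That call was lost in 5 of the 6 fits that left out 1 library, all but the one without macrophage library 1, with adjusted p between 0.0605 and 0.122. The common beta chain Csf2rb gave 179, 162 and 181 TPM against 235, 206 and 204 TPM (-0.30 ± 0.18 SE, adjusted p = 0.609, blocked 0.0282). The GM-CSF receptor alpha chain Csf2ra (-0.04, adjusted p = 0.994), the IL-3-specific beta chain Csf2rb2 (-0.37, 0.887), the IL-3 receptor alpha chain Il3ra (0.10, 0.989) and the SCF receptor Kit (-0.25, 0.943) did not pass. Csf2rb and Csf2rb2 are closely similar in sequence, so the split of reads between them is uncertain.

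The ligand gene Csf1, which encodes M-CSF, was itself higher in the granulocyte course, the cultures to which no M-CSF had been added. It measured 13.98, 8.7 and 9.5 TPM in the macrophage libraries and 59.9, 46.2 and 43.1 TPM in the granulocyte libraries, without overlap, a difference of -2.12 ± 0.19 SE (adjusted p = 0.000189). Its day 3 mean was 15.5 ± 0.872 TPM (SD, n = 3). Relative to day 3 it rose by 1.61 in the granulocyte course (adjusted p = 0.000427), and its change in the macrophage course was -0.52 (adjusted p = 0.0512).

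Among 16 genes of cytokine signalling and its feedback, 1 was higher in the macrophage and 2 in the granulocyte course (median -0.05; blocked, 2 and 4). Stat3, the transcription factor that G-CSF activates, stood at 34.9, 34.9 and 37.6 TPM against 55.9, 56.4 and 57.1 TPM (-0.64 ± 0.06 SE, adjusted p = 0.000294). The survival kinase gene Pim2, a target of STAT proteins, gave 2.09, 1.46 and 2.24 TPM against 7.94, 4.52 and 4.37 TPM (-1.14 ± 0.19 SE, adjusted p = 0.00887; 0.0916 in a fit of the 6 libraries alone). The anti-apoptotic gene Bcl2l1 went the other way, at 51.2, 46.5 and 47.7 TPM against 36.01, 33.5 and 30.7 TPM (0.53 ± 0.12 SE, adjusted p = 0.0348). Its groups did not overlap, but its call was lost without any single library other than granulocyte library 1 (adjusted p 0.0818 to 0.149). Socs1, a feedback inhibitor, differed only without granulocyte library 1 or without both libraries numbered 1 (adjusted p = 0.532 with all libraries, 0.0192 and 0.0106 without them).

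Of 28 neutrophil identity genes tested, 0 were higher in the macrophage and 3 in the granulocyte course (median -0.22), against 1.17% and 2.27% of all genes. With the block the counts were 4 and 13, against 5.6% and 8.07% of all genes. The chemokine receptor gene Cxcr2, through which neutrophils respond to CXC chemokines, had the largest difference of the list. It stood at 25.7, 16.9 and 17.6 TPM in the macrophage libraries and at 91.8, 97.0 and 98.3 TPM in the granulocyte libraries (-2.22 ± 0.16 SE, adjusted p = 5.03e-05). Its day 3 mean was 95.7 ± 14.4 TPM (SD, n = 3), the level of the granulocyte course at day 5 (0.01 relative to day 3, adjusted p = 0.971), with a fall of 2.21 in the macrophage course (adjusted p = 3.09e-05). The neighbouring gene Cxcr1 behaved alike at lower levels, at 0.10, 0.03 and 0.09 TPM against 5.19, 2.91 and 2.57 TPM (-2.04 ± 0.18 SE, adjusted p = 0.000189). Cxcr2 lies at chr1:74153989-74161246 and Cxcr1 at chr1:74191785-74194631 (mm10, GENCODE M21). Trem1, an amplifier of inflammatory signals on neutrophils and monocytes, was the remaining gene of the 3, besides Csf3r (-0.40 ± 0.09 SE, adjusted p = 0.0389). The Trem1 call was lost with median-of-ratios scaling (0.123) and without any single library other than macrophage library 3 (0.0622 to 0.127).

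Granule genes define neutrophil stages. Of 19 genes listed as primary granule genes 2 were higher in the granulocyte course (Hdc and Cst7) and 0 in the macrophage course, with a median of 0.01 (blocked, 4 and 2). Hdc, which makes histamine, also belongs to the mast cell and basophil list below, so its call does not mark a neutrophil stage. Mpo, encoding myeloperoxidase, measured 557, 517 and 519 TPM against 483, 696 and 668 TPM (-0.20 ± 0.18 SE, adjusted p = 0.834). Elane, encoding neutrophil elastase, measured 239, 426 and 474 TPM against 216, 458 and 434 TPM (0.05 ± 0.35 SE, adjusted p = 0.997). The groups overlapped for both genes, and replicate 1 was the low library of Elane in each course. Cathepsin G, Ctsg, gave 852, 573 and 503 TPM against 968, 807 and 854 TPM (-0.48, adjusted p = 0.209, blocked 0.0228, and 0.00786 without macrophage library 1).

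Of 20 secondary and tertiary granule genes 1 was higher in each direction (median 0.20), and with the block 8 in the macrophage and 4 in the granulocyte course. Lactoferrin, Ltf, gave 2035, 5168 and 4853 TPM in the macrophage libraries and 1543, 4073 and 4151 TPM in the granulocyte libraries (0.32 ± 0.41 SE, adjusted p = 0.918, blocked 0.0126). The cathelicidin gene Camp gave 592, 2067 and 1988 TPM against 318, 1193 and 1246 TPM (0.79 ± 0.59 SE, adjusted p = 0.736, blocked 0.000646). Within each replicate number both genes were above their level in the granulocyte library of that number, while the difference between replicate 1 and the others exceeded that between the courses. The cell adhesion gene Ceacam10 was the gene that passed upward (0.52 ± 0.12 SE, adjusted p = 0.0428), a call lost with median-of-ratios scaling (0.115) and in the 5 fits without 1 library other than macrophage library 1 (0.0722 to 0.164). The protease inhibitor Slpi passed in the other direction, at 70.6, 51.1 and 46.0 TPM against 125, 135 and 128 TPM (-1.22 ± 0.16 SE, adjusted p = 0.00205).

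The calprotectin genes overlapped between the courses. S100a8 stood at 19108, 74853 and 76899 TPM in the macrophage libraries and at 20638, 74300 and 78728 TPM in the granulocyte libraries (-0.04 ± 0.64 SE, adjusted p = 0.999). S100a9, its partner in the calprotectin dimer, stood at 30180, 69677 and 64727 TPM against 34292, 64849 and 65616 TPM (-0.03 ± 0.43 SE, adjusted p = 0.999). Of 9 S100 genes tested 0 passed in either direction. With the block, against 5.6% of all genes, 3 were higher in the macrophage course. S100a4, a calcium-binding protein of motile cells, was among them (888, 1445 and 1353 TPM against 647, 835 and 874 TPM; adjusted p = 0.124, blocked 0.0101, and 0.0139 without macrophage library 1). Haptoglobin, Hp, stored in the specific granules of neutrophils, gave 65.5, 276 and 253 TPM against 251, 753 and 755 TPM (-1.65 ± 0.58 SE, adjusted p = 0.205, blocked 9.17e-05, and 0.0273 without both libraries numbered 1).

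Several inflammatory genes were higher in the granulocyte course. Of 18 inflammatory cytokine and receptor genes 3 passed in this direction and 0 in the other (median -0.17). All genes gave 2.27% and 1.17%. With the block the counts were 8 and 1, against 8.07% and 5.6% of all genes. Il1b, encoding interleukin 1 beta, measured 16.5, 14.3 and 11.7 TPM in the macrophage libraries and 88.7, 85.3 and 99.8 TPM in the granulocyte libraries. The lowest granulocyte library was far above the highest macrophage library, and the difference was -2.62 ± 0.16 SE (adjusted p = 5.03e-05). Its day 3 mean lay between them, at 26.7 ± 8.51 TPM (SD, n = 3), from which Il1b rose by 1.78 in the granulocyte course (adjusted p = 0.000575) and fell by 0.83 in the macrophage course (adjusted p = 0.0165). The signalling receptor Il1r1 passed too (1.06, 0.62 and 1.13 TPM against 3.44, 2.62 and 2.45 TPM; adjusted p = 0.00249), and Csf1 was the third gene. Interleukin 6, Il6, gave 13.4, 1.86 and 1.76 TPM against 45.6, 12.7 and 14.8 TPM, with library 1 highest in each course (-2.15 ± 0.62 SE, adjusted p = 0.103, blocked 0.00158, and 0.00698 without macrophage library 1).

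Saa3, an acute-phase serum amyloid A gene, had 11.02, 7.59 and 7.74 TPM in the macrophage libraries and 85.4, 73.9 and 74.5 TPM in the granulocyte libraries (-3.03 ± 0.20 SE, adjusted p = 5.03e-05). From a day 3 mean of 18.4 ± 3.23 TPM it rose by 2.04 in the granulocyte course (adjusted p = 0.000129) and fell by 0.99 in the macrophage course (adjusted p = 0.00204). Irg1, whose enzyme makes itaconate, gave 2.80, 12.1 and 9.21 TPM against 19.98, 47.7 and 55.7 TPM, with library 1 low in each course (-2.28 ± 0.51 SE, adjusted p = 0.035). The Irg1 call was lost without macrophage library 1 or 3 or granulocyte library 2 or 3 (0.0679 to 0.149) and with median-of-ratios scaling (0.0508). Tnip3, an inhibitor of the NF-kappaB pathway, gave 2.84, 2.52 and 2.49 TPM against 16.2, 11.4 and 11.4 TPM (-1.94 ± 0.15 SE, adjusted p = 8.44e-05). Cd14, the lipopolysaccharide co-receptor often used as a monocyte marker, was also higher in the granulocyte course, at 33.1, 24.1 and 24.2 TPM against 65.2, 75.8 and 69.9 TPM (-1.35 ± 0.18 SE, adjusted p = 0.00215). The endothelial and leukocyte adhesion ligand Icam1 differed by -0.67 ± 0.12 SE (adjusted p = 0.0138), a call lost without granulocyte library 2 or 3 (0.0605 and 0.0547).

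**Figure D3:**
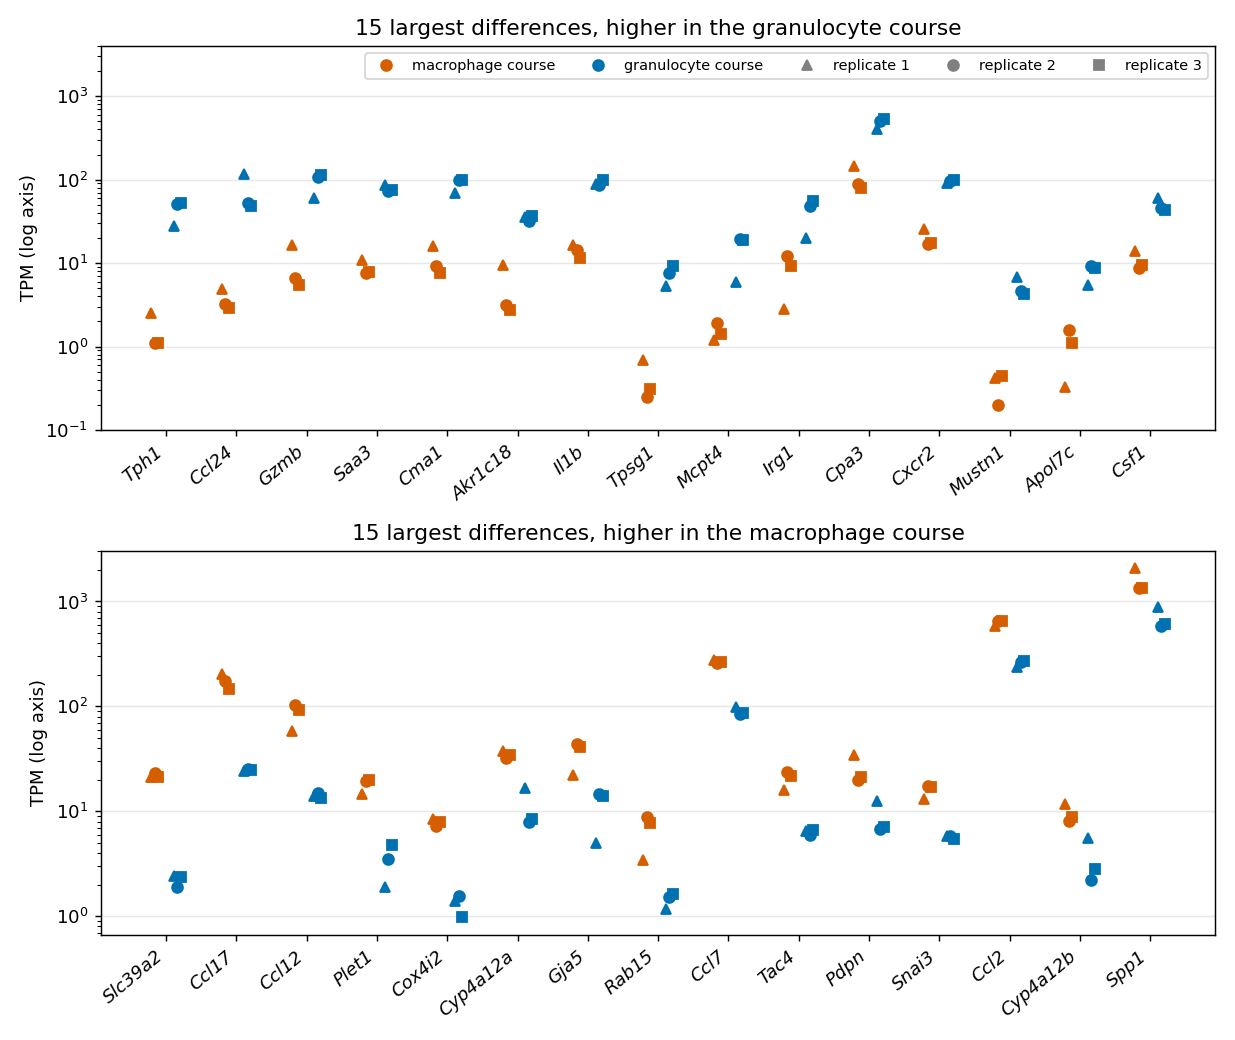
TPM (log axis) in each control library of day 5 for the 15 genes with the largest difference in each direction among those past the threshold, with at least 5 TPM in the higher course and no overlap. Orange marks the macrophage and blue the granulocyte course, and symbols mark replicates 1 to 3; each gene's blue and orange points are separate.

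Mast cell and basophil genes were higher in the granulocyte course. Of 16 tested, 12 passed in this direction and 0 in the other (median -1.20), against 2.27% of all genes tested in that direction. With the block the count was 13. The list's summed level was 1000 to 1317 TPM in the macrophage libraries and 2194 to 2503 TPM in the granulocyte libraries. Mast cells and basophils store proteases, carboxypeptidase A3 and histamine in their granules, carry the high-affinity IgE receptor (Fcer1a, Ms4a2) and depend on GATA transcription factors, chiefly Gata2, whose binding motif has the core GATA.

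The 250 bases upstream of the annotated start were searched for AGATAA or TGATAA on both strands (RefSeq windows, GRCm38.p6). These words share the run GATAA, and no position can match both. Of the 11 members of the list past the threshold that have a window, 5 held a match (45.5%), as did 8 of the 15 list members with a window (53.3%). Among all tested genes with a window the share was 978 of 8518 (11.5%), and among all genes with a window 5092 of 27025 (18.8%). Among all windows, counted singly, it was 5452 of 32851 (16.6%). Members past the threshold did not hold a match more often than the whole list. A match is a run of letters, not a measured binding site. The windows of 4 of the 5 members are shown, since these carry the letters counted; each is written 5′ to 3′ along the gene's own strand, with matches in capitals, and TTATCT is AGATAA read on the opposite strand.
Cpa3: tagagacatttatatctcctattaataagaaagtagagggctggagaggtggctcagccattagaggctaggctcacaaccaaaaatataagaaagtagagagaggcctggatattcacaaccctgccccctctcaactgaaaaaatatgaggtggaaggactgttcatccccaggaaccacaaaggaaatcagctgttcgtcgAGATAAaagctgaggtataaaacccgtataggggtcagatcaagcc
Fcer1a: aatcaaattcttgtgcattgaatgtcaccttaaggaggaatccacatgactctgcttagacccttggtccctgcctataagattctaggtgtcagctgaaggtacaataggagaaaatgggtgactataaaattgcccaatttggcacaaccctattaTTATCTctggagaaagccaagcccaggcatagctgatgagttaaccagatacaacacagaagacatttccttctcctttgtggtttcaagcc
Ms4a2: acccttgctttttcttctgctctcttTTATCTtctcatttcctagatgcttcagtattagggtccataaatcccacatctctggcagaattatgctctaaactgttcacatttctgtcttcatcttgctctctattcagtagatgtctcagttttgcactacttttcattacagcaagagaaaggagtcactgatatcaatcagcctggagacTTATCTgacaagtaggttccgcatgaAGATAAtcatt
Mcpt4: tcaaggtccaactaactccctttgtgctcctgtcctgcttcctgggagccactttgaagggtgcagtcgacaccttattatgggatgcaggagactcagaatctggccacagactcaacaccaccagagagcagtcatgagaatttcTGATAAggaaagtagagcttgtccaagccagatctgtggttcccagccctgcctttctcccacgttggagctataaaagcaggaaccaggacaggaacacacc
All 4 genes lie on the minus strand, and the windows are chr3:20242182-20242431 for Cpa3, chr1:173227230-173227479 for Fcer1a, chr19:11623720-11623969 for Ms4a2, which holds 3 matches, and chr14:56062311-56062560 for Mcpt4.

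Cpa3, encoding carboxypeptidase A3, stood at 145, 87.6 and 80.04 TPM in the macrophage libraries and at 405, 510 and 534 TPM in the granulocyte libraries (-2.24 ± 0.28 SE, adjusted p = 0.0016). The groups were well apart, and macrophage library 1 was the highest of its course. The mean at day 3 was 286 ± 82.6 TPM (SD, n = 3): Cpa3 fell by 1.45 in the macrophage course (adjusted p = 0.00328), and its change in the granulocyte course was 0.79 (adjusted p = 0.0522). The IgE receptor alpha chain Fcer1a gave 36.1, 17.7 and 15.2 TPM against 63.5, 98.5 and 109.5 TPM (-1.99 ± 0.35 SE, adjusted p = 0.0104). The receptor's beta chain Ms4a2 gave 6.84, 5.23 and 5.02 TPM against 10.4, 14.3 and 14.4 TPM (-1.06 ± 0.23 SE, adjusted p = 0.0299). Both calls were lost without macrophage library 2 or 3 or granulocyte library 2 or 3, with adjusted p of 0.051 to 0.0534 for Fcer1a and 0.111 to 0.129 for Ms4a2.

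Among the chymase and tryptase genes, Mcpt4 measured 1.19, 1.90 and 1.42 TPM against 5.98, 19.3 and 19.1 TPM (-2.51 ± 0.35 SE, adjusted p = 0.00291; 0.0539 in a fit of the 6 libraries alone). At day 3 it had been 0.25 ± 0.11 TPM (SD, n = 3), so its granulocyte level arose after that day (3.51 relative to day 3, adjusted p = 0.000318). Cma1, another chymase, measured 15.9, 9.14 and 7.67 TPM against 68.8, 100.01 and 98.4 TPM (-2.96 ± 0.36 SE, adjusted p = 0.0012), with 41.1 ± 7.43 TPM at day 3. The tryptase Tpsb2 gave 10.9, 8.44 and 7.37 TPM against 33.1, 35.4 and 34.5 TPM (-1.85 ± 0.23 SE, adjusted p = 0.0016). The transmembrane tryptase Tpsg1, next to Tpsb2 on chromosome 17, gave 0.69, 0.25 and 0.31 TPM against 5.33, 7.52 and 9.24 TPM (-2.55 ± 0.33 SE, adjusted p = 0.0017). Gzmb, encoding granzyme B and located on chromosome 14 beside the mast cell chymases (chr14:56258838-56262260), gave 16.6, 6.71 and 5.43 TPM against 61.1, 107 and 114 TPM (-3.26 ± 0.43 SE, adjusted p = 0.00209). These protease families are close paralogs, so how reads were shared among their members is uncertain.

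Tph1, the enzyme that starts serotonin synthesis outside the brain, had the largest difference of all 11119 tested genes, at 2.53, 1.11 and 1.10 TPM against 27.5, 50.6 and 52.8 TPM (-4.10 ± 0.44 SE, adjusted p = 0.000685). Its day 3 mean was 25.3 ± 9.51 TPM (SD, n = 3), from which it fell by 3.32 in the macrophage course (adjusted p = 0.000145), while the change in the granulocyte course was 0.78 (adjusted p = 0.113). Hdc, which makes histamine, gave 21.7, 29.8 and 25.5 TPM against 67.6, 107 and 109.8 TPM (-1.82 ± 0.25 SE, adjusted p = 0.00249). The interleukin 33 receptor Il1rl1 gave 9.25, 5.84 and 5.81 TPM against 24.1, 26.7 and 27.5 TPM (-1.79 ± 0.24 SE, adjusted p = 0.00236). Akr1c18, a progesterone-metabolising enzyme, gave 9.59, 3.13 and 2.77 TPM against 35.6, 31.6 and 37.2 TPM (-2.70 ± 0.36 SE, adjusted p = 0.00205), down in both courses from 144 ± 20.9 TPM at day 3. Across these genes the macrophage and granulocyte libraries did not overlap. The mast cell and basophil marker sum above was likewise lower in every macrophage library than in any granulocyte library. Within the macrophage course it was highest in library 1, where Hdc was lowest.

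Of 11 erythroid genes tested 6 were higher in the granulocyte course and 0 in the macrophage course (median -1.10; 7 further members were under the filter), against 2.27% of all genes. With the block 8 were higher in the granulocyte course, against 8.07% of all genes. The beta-globin gene Hbb-bt read 3.15, 1.73 and 1.69 TPM against 10.9, 10.5 and 9.63 TPM (-1.86 ± 0.17 SE, adjusted p = 0.000249), down from 64.9 ± 9.52 TPM at day 3; its row is identical to that of Hbb-b2 in every library. The carbonic anhydrases Car1 (-1.75, adjusted p = 0.000166) and Car2 (-1.78, 0.00112), the water channel Aqp1 (-1.61, 0.00405) and the erythroid factors Klf1 (-1.10, 0.00112) and Gata1 (-1.09, 0.0114) were the others. The Gata1 call was lost without macrophage library 2 or 3 or granulocyte library 2 (0.0534 to 0.0595). Of 17 megakaryocyte and platelet genes 2 passed, Itgb3 (-1.04, adjusted p = 0.0143) and Rab27b (-1.08, 0.0346), and 11 with the block, all higher in the granulocyte course (median -0.77). Both calls depended on single libraries: Itgb3 was lost without macrophage library 2 or 3 or granulocyte library 2 (0.0541 to 0.0662), and Rab27b without any but macrophage library 1 (0.0635 to 0.141).

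Of 21 stem and progenitor genes 4 were higher in the granulocyte and 0 in the macrophage course (median -0.33). All genes gave 2.27% and 1.17%. With the block 9 were higher in the granulocyte course, against 8.07% of all genes. Cd34, the classical progenitor antigen, gave 17.6, 11.5 and 11.01 TPM against 33.8, 32.4 and 33.0 TPM (-1.27 ± 0.18 SE, adjusted p = 0.00263). The homeobox gene Meis1 gave 3.63, 2.07 and 1.90 TPM against 6.93, 4.98 and 4.71 TPM (-0.91 ± 0.18 SE, adjusted p = 0.0209), and Gata2 gave 7.31, 3.40 and 4.30 TPM against 14.8, 12.6 and 10.2 TPM (-1.21 ± 0.28 SE, adjusted p = 0.0444). Spink2 was the remaining gene (-0.72, adjusted p = 0.0264). Gata2 also belongs to the mast cell and basophil list above, so its call is counted in both lists and does not mark a progenitor state. Cd34, Meis1 and Gata2 were lower in both courses than at day 3, where their means were 69.6 ± 12.6, 12.5 ± 2.77 and 20.8 ± 2.93 TPM (SD, n = 3), and were lower still in the macrophage course. Leaving out single libraries ended the calls of Meis1 (macrophage 2 or 3, granulocyte 2; 0.06 to 0.093), Gata2 (all but macrophage 1; 0.0801 to 0.169) and Spink2 (macrophage 2 or 3, granulocyte 1 or 2; 0.0546 to 0.12), but not that of Cd34.

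Antigen presentation genes of class II and several C-type lectins were higher in the granulocyte course. Of 9 class II genes 6 passed in this direction and 0 in the other (median -0.68), against 2.27% and 1.17% of all genes. Under median-of-ratios scaling 4 class II genes passed. Their summed level was 281 to 391 TPM in the macrophage libraries and 653 to 750 TPM in the granulocyte libraries, and had been 1409 TPM on average at day 3. H2-Ab1, a class II beta chain, stood at 37.1, 51.2 and 51.5 TPM against 98.7, 107 and 100.05 TPM (-1.13 ± 0.13 SE, adjusted p = 0.000884). The invariant chain Cd74 stood at 134, 194 and 181 TPM against 328, 366 and 309 TPM (-0.99 ± 0.15 SE, adjusted p = 0.00566). Library 1 of the macrophage course was the lowest for both genes. Ciita, the master regulator of class II genes, gave 0.65, 1.07 and 1.14 TPM against 1.98, 2.43 and 1.93 TPM (-0.68 ± 0.12 SE, adjusted p = 0.0113). H2-Aa (-1.22, adjusted p = 0.0265), H2-Eb1 (-1.16, 0.0446) and H2-DMb1 (-0.59, 0.028) made up the 6. With median-of-ratios scaling H2-Eb1 and H2-DMb1 did not pass (0.0793 and 0.0759). In a fit of the 6 libraries alone Ciita (limma adjusted p = 0.0999), H2-Aa (0.0993) and H2-Eb1 (0.137) did not pass. Leaving out single libraries ended the calls of Ciita (granulocyte 2; 0.0609), H2-Aa (macrophage 2, granulocyte 2 or 3; 0.051 to 0.119), H2-DMb1 (macrophage 2 or 3, granulocyte 2 or 3; 0.091 to 0.129) and H2-Eb1 (all but granulocyte 1; 0.059 to 0.176).

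For H2-Ab1, Cd74, H2-Aa and H2-Eb1 the day 3 level was the highest, and the fall was larger in the macrophage course: H2-Ab1 went from 263 ± 46.7 TPM (SD, n = 3) down by 2.47 in the macrophage and by 1.34 in the granulocyte course. Dendritic cell markers, which express class II, summed to 4.54 to 5.61 TPM in the macrophage and 5.5 to 8.76 TPM in the granulocyte libraries and were 37.7 TPM at day 3, with Xcr1, Clec9a and Siglech under 0.2 TPM in all 6 libraries. Their part in the class II difference was not tested. Of 14 class I genes 1 passed, the immunoproteasome subunit Psmb10 (-0.47, adjusted p = 0.00552; 0.0591 in a fit of the 6 libraries alone). With the block 6 of the 14 were higher in the granulocyte course and 0 in the macrophage course (median -0.23). Over all genes the block gave 8.07% and 5.6%.

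Of 15 C-type lectin genes 6 were higher in the granulocyte course and 0 in the macrophage course (median -0.49), against 2.27% and 1.17% of all genes. With the block the counts were 7 and 2, against 8.07% and 5.6% of all genes. C-type lectins are receptors for fungal, bacterial and self glycans, and many are encoded side by side on chromosome 6. Clec4a1 gave 0.27, 0.44 and 0.41 TPM against 2.88, 3.12 and 2.65 TPM (-1.50 ± 0.12 SE, adjusted p = 0.000131) and Clec4a3, next to it, 10.02, 6.17 and 7.21 TPM against 23.8, 18.4 and 17.7 TPM (-1.26 ± 0.22 SE, adjusted p = 0.0106). Clec4b1 (-1.41, adjusted p = 0.0169) and Clec4e, which encodes the mycobacterial glycolipid receptor Mincle (-1.34, 0.0432), lie in the same stretch, from Clec4a1 at chr6:122921848-122934619 to Clec4e at chr6:123281789-123289870. Clec7a, encoding the beta-glucan receptor Dectin-1, gave 117, 71.98 and 74.8 TPM against 239, 156 and 167 TPM (-1.09 ± 0.21 SE, adjusted p = 0.0183), and Clec5a differed by -0.54 (adjusted p = 0.0169). Clec7a rose in both courses from 50.2 ± 4.89 TPM at day 3, by 0.76 in the macrophage and 1.86 in the granulocyte course. Of these 6 calls, that of Clec4a1 alone passed in every fit that left out 1 library; adjusted p rose to 0.053 for Clec4a3 and 0.0794 for Clec4b1 (macrophage 3), 0.141 for Clec4e (macrophage 3), 0.0867 for Clec7a (macrophage 3) and 0.0746 for Clec5a (granulocyte 3).

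**Figure D4:**
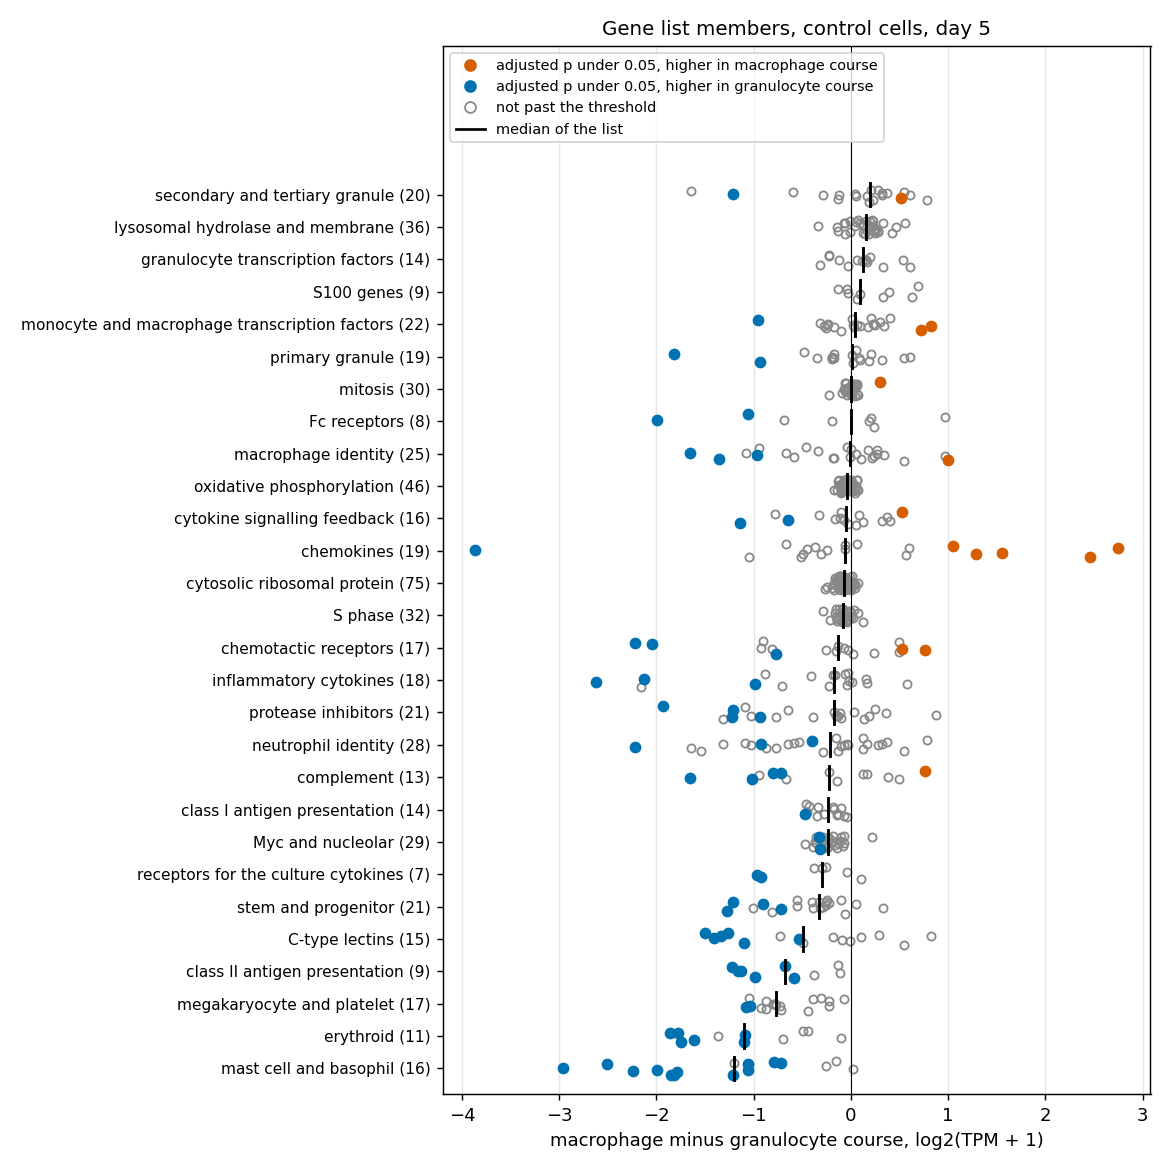
Difference on the log2(TPM + 1) scale, macrophage minus granulocyte, for each tested member of 28 gene lists, with the number tested in brackets; filled points passed the threshold and black bars mark list medians. Mast cell and basophil, erythroid, megakaryocyte and class II lists have medians of -1.20, -1.10, -0.77 and -0.68, while the S phase and mitosis lists have medians of -0.08 and 0.00.

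Chemokine genes that attract monocytes were higher in the macrophage course. Of 19 chemokine genes 5 were higher in the macrophage and 1 in the granulocyte course (median -0.06), against 1.17% and 2.27% of all genes tested, and with the block 6 and 4. Summed over the list, the macrophage libraries held 7459 to 9807 TPM and the granulocyte libraries 4271 to 5864 TPM. Ccl2, the main ligand of the monocyte receptor Ccr2, stood at 588, 653 and 655 TPM against 238, 266 and 274 TPM (1.28 ± 0.15 SE, adjusted p = 0.00104). It rose in both courses from 73.2 ± 4.62 TPM at day 3 (SD, n = 3), by 3.09 in the macrophage course (adjusted p = 8.64e-07) and by 1.81 in the granulocyte course (adjusted p = 7.19e-05). Ccl7, another Ccr2 ligand, gave 275, 260 and 264 TPM against 99.8, 84.7 and 86.2 TPM (1.55 ± 0.23 SE, adjusted p = 0.00354). Ccl12, a close relative of Ccl2 in the mouse, gave 58.2, 102 and 92.0 TPM against 13.97, 14.9 and 13.3 TPM (2.46 ± 0.31 SE, adjusted p = 0.0016). Unlike Ccl2 and Ccl7, Ccl12 moved in opposite directions from its day 3 level of 31.1 ± 5.9 TPM, upward in the macrophage course (adjusted p = 0.001) and with a change of -1.08 in the granulocyte course (adjusted p = 0.00461).

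These 3 genes are neighbours on mouse chromosome 11 (mm10): Ccl2 lies at chr11:82035571-82037453, Ccl7 at chr11:82045712-82047525 and Ccl12 at chr11:82101845-82103400. Ccl6, a myeloid chemokine farther along at chr11:83587882-83593087, was among the most abundant transcripts, at 6774, 4871 and 5022 TPM against 3406, 2257 and 2433 TPM (1.05 ± 0.20 SE, adjusted p = 0.0162). Its call was lost without granulocyte library 2 or 3 (0.0866 and 0.0772). Ccl17, a ligand of Ccr4 that attracts T helper cells, gave 203, 174 and 145 TPM against 24.3, 25.6 and 24.5 TPM (2.75 ± 0.22 SE, adjusted p = 0.000133), having been 39.7 ± 13.2 TPM at day 3. In the other direction stood Ccl24, the eosinophil chemoattractant eotaxin-2, with 4.95, 3.25 and 2.90 TPM against 116, 52.2 and 48.0 TPM (-3.87 ± 0.74 SE, adjusted p = 0.0167). Ccl24 had been 412 ± 27.8 TPM at day 3 and fell in both courses, by 6.48 in the macrophage and 2.62 in the granulocyte course. Its call was lost without macrophage library 2 or 3 or granulocyte library 2 (0.055 to 0.0755), and was at 0.0501 without both libraries numbered 1.

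Of 17 chemotactic receptor genes 2 were higher in the macrophage course, the complement anaphylatoxin receptors C3ar1 (0.76, adjusted p = 0.0435) and C5ar2 (0.53, 0.0294). The 3 that were higher in the granulocyte course were Cxcr1, Cxcr2 and the atypical receptor Ccrl2 (-0.77, adjusted p = 0.00405; 0.0539 in a fit of the 6 libraries alone). With the block the counts were 4 and 6. C3ar1 did not pass without macrophage library 1 or 3 or granulocyte library 2 or 3 (0.104 to 0.175), nor C5ar2 without any library but macrophage 1 (0.0546 to 0.125) or with median-of-ratios scaling (0.0571). The formyl peptide receptor Fpr1 gave 86.9, 92.0 and 89.1 TPM against 121, 172 and 187 TPM (-0.81 ± 0.22 SE, adjusted p = 0.0735, blocked 0.0124, and 0.0282 without granulocyte library 1).

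Macrophage identity genes were mixed in direction: of 25 tested, 1 was higher in the macrophage and 3 in the granulocyte course (median -0.01), 7 and 6 with the block, and 2 and 2 with median-of-ratios scaling. The scavenger receptor Msr1, which takes up modified lipoproteins, stood at 104, 98.5 and 97.3 TPM against 53.4, 47.2 and 47.8 TPM (0.9998 ± 0.16 SE, adjusted p = 0.00667). It rose in both courses from 20.0 ± 1.77 TPM at day 3 (SD, n = 3), by 2.27 and 1.26. The 3 genes in the other direction were Csf1r, Cd14 and C1qb, a subunit of complement C1q. C1qb read 3.17, 5.27 and 4.28 TPM against 11.8, 18.1 and 16.5 TPM (-1.65 ± 0.39 SE, adjusted p = 0.0441). It did not pass with median-of-ratios scaling (0.0615) or without any single library other than granulocyte library 1 (0.0903 to 0.17). The day 3 level of C1qb, 44.5 ± 11.7 TPM, exceeded that of either course. The high-affinity IgG receptor Fcgr1, a marker of mature macrophages, gave 22.9, 15.2 and 15.8 TPM against 15.1, 6.23 and 6.47 TPM (0.97 ± 0.31 SE, adjusted p = 0.153, blocked 0.00516, and 0.0127 without granulocyte library 1), up in both courses from 1.67 ± 0.139 TPM at day 3.

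Fc receptors as a list of 8 held 2 genes past the threshold, the IgE receptor chains Fcer1a and Ms4a2, and with the block 2 in the macrophage and 4 in the granulocyte course (median 0.00). The inhibitory receptor Fcgr2b gave 156, 91.3 and 91.8 TPM against 224, 156 and 157 TPM (-0.68 ± 0.21 SE, adjusted p = 0.128, blocked 0.000438, and 0.0103 without macrophage library 1). Complement genes gave 1 against 4 of 13 (median -0.22; blocked, 3 and 6): C3ar1 was higher in the macrophage course, and C1qb, C3 (-0.80, adjusted p = 0.0253), Cfb (-1.01, 0.00233; 0.0536 in a fit of the 6 libraries alone) and Cd55 (-0.72, 0.0261) in the granulocyte course. C3 did not pass without macrophage library 1, 2 or 3 or granulocyte library 2 (0.0596 to 0.0895), nor Cd55 without any library but macrophage 1 (0.0554 to 0.11). Protease inhibitors gave 0 against 4 of 21 (median -0.17; blocked, 2 and 9), namely Serpina3g (-1.94, adjusted p = 0.000153), Timp3 (-1.23, 0.0201), Slpi and the cystatin Cst7 (-0.93, 0.0136). Timp3 did not pass without macrophage library 2 or 3 or granulocyte library 2 or 3 (0.0657 to 0.0916), nor Cst7 without macrophage library 3 or granulocyte library 2 or 3 (0.0549 to 0.0631). Beside these list counts, all genes gave 1.17% in the macrophage and 2.27% in the granulocyte course, or 5.6% and 8.07% with the block.

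Genes of varied function were also higher in the macrophage course. Slc39a2, a zinc importer, had the largest difference in that direction among genes past the threshold, with 21.4, 23.1 and 21.1 TPM against 2.41, 1.92 and 2.38 TPM (2.82 ± 0.20 SE, adjusted p = 5.03e-05) and 1.12 ± 0.132 TPM at day 3 (SD, n = 3). The cell surface gene Plet1 gave 14.6, 19.3 and 19.9 TPM against 1.91, 3.52 and 4.74 TPM (2.15 ± 0.27 SE, adjusted p = 0.0016). The lung isoform of a cytochrome oxidase subunit, Cox4i2, gave 8.53, 7.28 and 8 TPM against 1.4, 1.56 and 0.98 TPM (1.96 ± 0.29 SE, adjusted p = 0.00443). Its macrophage level was near that of day 3 (11.2 ± 2.23 TPM), and it fell by 2.38 in the granulocyte course (adjusted p = 8.98e-05). The tachykinin gene Tac4 gave 16.1, 23.6 and 21.8 TPM against 6.46, 5.97 and 6.63 TPM (1.53 ± 0.15 SE, adjusted p = 0.000447).

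Podoplanin, Pdpn, gave 34.2, 20.1 and 21.1 TPM against 12.7, 6.86 and 7.08 TPM (1.41 ± 0.26 SE, adjusted p = 0.0121), from 0.467 ± 0.137 TPM at day 3. The gap junction gene Gja5 gave 22.3, 43.4 and 41.1 TPM against 5.01, 14.6 and 14.1 TPM, with library 1 low in each course (1.65 ± 0.37 SE, adjusted p = 0.0352). Osteopontin, Spp1, a secreted matrix protein of macrophages, reached 2082, 1331 and 1356 TPM against 887, 580 and 612 TPM (1.19 ± 0.26 SE, adjusted p = 0.0312), from 407 ± 97.2 TPM at day 3. The fatty acid hydroxylases Cyp4a12a (1.65, adjusted p = 0.0117) and Cyp4a12b (1.27, 0.0352), whose sequences are near-identical and whose reads may be shared, rounded out the largest differences together with Rab15 (1.57, 0.00822; 0.0804 in a fit of the 6 libraries alone) and the zinc finger gene Snai3 (1.32, 0.0169). The cyclin D1 gene Ccnd1, a G1 cyclin that M-CSF induces in macrophages, gave 18.4, 20.6 and 24.1 TPM against 9.47, 9.22 and 7.63 TPM (1.17 ± 0.20 SE, adjusted p = 0.00845). The clearance receptor Stab1 gave 3.16, 3.66 and 4.52 TPM against 1.09, 1.48 and 1.26 TPM (1.06 ± 0.14 SE, adjusted p = 0.00205). Several of these calls did not hold in every fit that left out 1 library. Pdpn did not pass without granulocyte library 2 or 3 (0.0631 and 0.0606), and Spp1 without any but granulocyte library 1 (0.0639 to 0.141). Gja5 did not pass without macrophage library 2 or 3 or granulocyte library 2 or 3 (0.0535 to 0.144) or with median-of-ratios scaling (0.0542). Cyp4a12a did not pass without macrophage library 3 or granulocyte library 2 or 3 (0.0523 to 0.0605), Cyp4a12b without any but granulocyte library 1 (0.0791 to 0.154), and Snai3 without macrophage library 2 or 3 or granulocyte library 2 or 3 (0.064 to 0.0785).

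Of 22 monocyte and macrophage factors 2 were higher in the macrophage and 1 in the granulocyte course (median 0.04; blocked, 3 and 1), and of 14 granulocyte factors 0 passed (3 higher in the macrophage course with the block; median 0.13). Irf8, which directs progenitors toward monocytes and away from neutrophils, stood at 18.8, 18.0 and 19.3 TPM against 8.46, 10.8 and 11.2 TPM (0.83 ± 0.12 SE, adjusted p = 0.00318). From 13.7 ± 0.968 TPM at day 3 (SD, n = 3) it rose by 0.43 in the macrophage course (adjusted p = 0.0246) and fell by 0.40 in the granulocyte course (adjusted p = 0.0348). The retinoid X receptor Rxra gave 22.8, 18.1 and 18.9 TPM against 14, 10.8 and 10.4 TPM (0.72 ± 0.13 SE, adjusted p = 0.0103; 0.056 and 0.0524 without granulocyte library 2 or 3). Nr4a1, needed for patrolling monocytes, gave 0.54, 1.08 and 1.23 TPM against 2.74, 3.10 and 2.39 TPM (-0.95 ± 0.15 SE, adjusted p = 0.00524; 0.0621 in a fit of the 6 libraries alone).

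PU.1, encoded by Spi1 and required in both lineages, gave 221, 265 and 269 TPM against 230, 254 and 263 TPM (0.01 ± 0.09 SE, adjusted p = 0.997). The granulocyte factor Cebpa gave 34.2, 31.7 and 31.6 TPM against 32.1, 37.2 and 37.3 TPM (-0.12 ± 0.09 SE, adjusted p = 0.748). Cebpe, the factor of secondary granule genes, gave 109.7, 203 and 207 TPM against 77.1, 172 and 172 TPM (0.33 ± 0.30 SE, adjusted p = 0.825, blocked 0.00909). Cebpb, used in emergency granulopoiesis and in macrophages, gave 186, 127 and 139 TPM against 158, 80.1 and 83.5 TPM (0.54 ± 0.27 SE, adjusted p = 0.46, blocked 0.00982). For Cebpe and Cebpb the macrophage library of each number was above the granulocyte library of that number, and the groups overlapped through library 1.

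Of 32 S phase genes 0 passed (3 higher in the granulocyte course with the block), and of 30 mitosis genes 1 did, Cdc25b (0.30, adjusted p = 0.035; lost with median-of-ratios scaling at 0.0542 and without macrophage library 2 or 3 or granulocyte library 2 or 3 at 0.115 to 0.147). Of 75 cytosolic ribosomal protein genes and of 46 oxidative phosphorylation genes 0 passed, and 1 of each with the block, higher in the granulocyte course. Of 29 Myc target and nucleolar genes 2 were higher in the granulocyte course, the fibrillarin gene Fbl (-0.33, adjusted p = 0.0285) and Gnl3 (-0.31, 0.0346), and 13 with the block, with a median of -0.24. With median-of-ratios scaling 0 of these 29 passed (Fbl 0.148, Gnl3 0.106), and both calls were also lost without macrophage library 2 or 3 or granulocyte library 2 or 3 (0.0635 to 0.149). Of 36 lysosomal genes 0 passed, and 9 were higher in the macrophage course with the block (median 0.16).

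**Figure D5:**
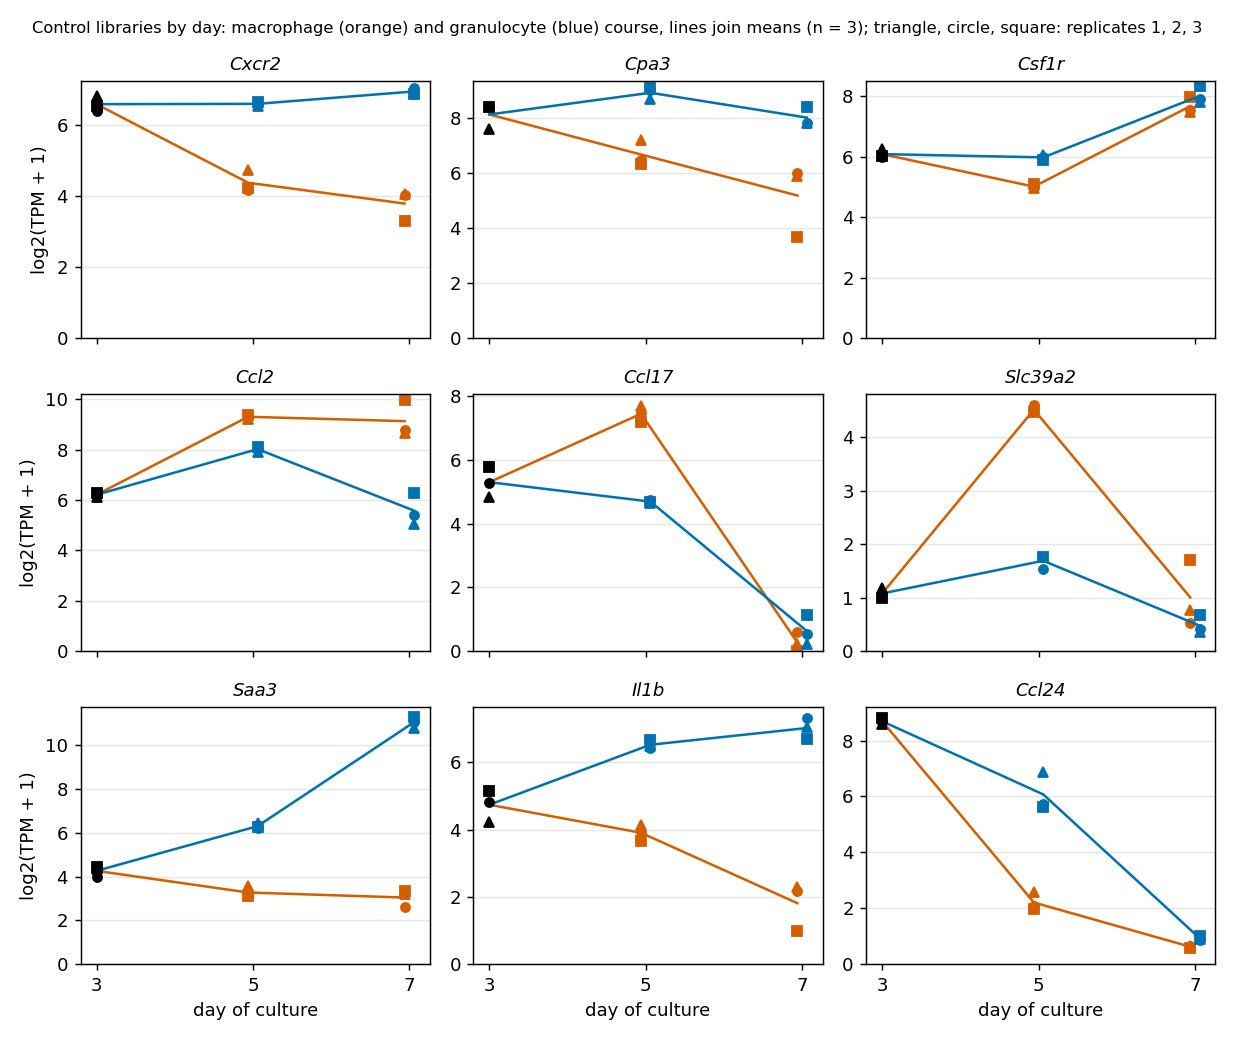
Level on the log2(TPM + 1) scale by day of culture for 9 genes in control libraries, with black for day 3, orange for the macrophage and blue for the granulocyte course, symbols for replicates 1 to 3 and lines joining means of 3 libraries. Cxcr2 and Cpa3 are lower in the macrophage than in the granulocyte course at days 5 and 7, whereas Ccl17, Slc39a2 and Ccl24 average at most 1.14 TPM in either course at day 7.

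The difference between the courses was next followed to day 7, in a test of whether the macrophage minus granulocyte difference itself had changed. It had for 1231 of 11233 genes (11%), 892 upward (7.94%) and 339 downward (3.02%), and with the block for 5424 (48.3%), 38.3% upward and 9.99% downward. The split depends on scaling: the median change over all genes was 0.22 and fell to 0.02 with median-of-ratios scaling, which gave 462 upward and 555 downward, so each change is to be read against that shift. Leaving out 1 library gave between 327 and 2059 genes, the extremes being without granulocyte library 2 and without granulocyte library 3 of day 7. Several genes higher in the macrophage course at day 5 were low in both courses at day 7. Ccl17 averaged 0.227 ± 0.26 TPM in the macrophage and 0.607 ± 0.519 TPM in the granulocyte course at day 7 (SD, n = 3 each), and its difference fell by 3.11 (adjusted p = 0.000484). Slc39a2 averaged 1.14 ± 0.992 and 0.40 ± 0.166 TPM, a fall of 2.30 in the difference (adjusted p = 0.00373).

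Saa3 and Il1b, in contrast, separated further. Saa3 averaged 7.44 ± 2.14 TPM in the macrophage and 2125 ± 388 TPM in the granulocyte course at day 7, and its difference changed by -4.97 ± 0.29 SE (adjusted p = 9.54e-06). Il1b averaged 2.79 ± 1.59 and 131 ± 28.7 TPM (-2.59, adjusted p = 0.00547). Ccl2 remained high in the macrophage course, at 612 ± 334 TPM, and fell to 50.2 ± 23.6 TPM in the granulocyte course (2.27, adjusted p = 0.0175), a call lost without granulocyte library 1 or 2 of day 7 (0.0505 and 0.0556). Csf3r averaged 17.5 ± 5.13 and 77.1 ± 4.67 TPM (-1.19, adjusted p = 0.0295; 0.0633 to 0.0738 without granulocyte library 2 or 3 of day 5 or 1 or 2 of day 7). For Cxcr2, with 13.2 ± 3.87 and 122 ± 8.15 TPM, the change passed only with the block (-0.93, adjusted p = 0.0564, blocked 0.0106). For Cpa3, with 44.2 ± 28.3 and 262 ± 66.6 TPM, it passed in neither fit (-0.59, adjusted p = 0.608, blocked 0.537).

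At day 5 the same difference in Taf1 knockout cultures departed from that of the controls for 21 of 11119 genes (0.189%), 5 upward (0.045%) and 16 downward (0.144%), and with the block for 356 (3.2%), 1.36% upward and 1.84% downward. With median-of-ratios scaling 23 were upward and 20 downward, as the median over all genes moved from -0.13 to 0.02. Leaving out 1 library gave 0 genes without knockout granulocyte library 2 or 3 (limma; 717 and 666 at an unadjusted p under 0.05) and 56 without knockout macrophage library 1. In the knockouts Taf1 averaged 6.11 ± 0.15 TPM in the macrophage and 7.36 ± 0.153 TPM in the granulocyte course, under every control library of day 5. Saa3 was the largest upward: its knockout means were 4.31 ± 1.32 TPM in the macrophage and 7.04 ± 1.10 TPM in the granulocyte course (SD, n = 3 each), and the course difference was smaller than in controls by 2.40 ± 0.28 SE (adjusted p = 0.00735). Msr1 had knockout means of 31.2 ± 6.92 and 4.803 ± 1.06 TPM (1.46, adjusted p = 0.0391), and Ccl17 of 416 ± 159 and 249 ± 26.3 TPM (-2.08, adjusted p = 0.0382). The Saa3 call was lost without knockout granulocyte library 2 or 3 (0.11 and 0.0704). That of Ccl17 was lost in 11 of the 12 fits that left out 1 library, all but the one without knockout macrophage library 1 (0.0529 to 0.178). That of Msr1 was lost in 10, all but those without knockout macrophage or granulocyte library 1 (0.0652 to 0.201). The mast cell gene Cpa3 had 237 ± 18.3 and 1089 ± 384 TPM in the knockouts, and its difference was not shown to depend on genotype (0.11, adjusted p = 0.943). Csf1r had 33.5 ± 3.00 and 35.99 ± 5.52 TPM, and its change between genotypes passed only with the block (0.87, adjusted p = 0.0622, blocked 0.0365).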

How the data were processed

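RNA-seq values of 36 libraries, 12 groups of 3, were deposited by the authors as TPM per gene symbol in 2 tables. Per the submitters' processing notes RSEM and DESeq2 1.38.3 were used with mm10; the sources used here give no aligner, and with TPM the depth is unknown. The 12 columns of days 0 and 3 that both tables hold were equal. Between 10617 and 11040 genes reached 1 TPM in the 6 libraries described, and RNA was total RNA made into stranded libraries, per the labels' protocols.

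Differences were fitted with limma 3.58.1 (R 4.3.3) on log2(TPM + 1) over the 12 day 5 libraries, 1 coefficient per group, trended prior, 8 residual degrees of freedom, genes with at least 1 TPM in 3 libraries, and Benjamini-Hochberg adjustment at 0.05 over all tested genes. Interactions used 1 fit each, over 12 libraries. The day 5 fit was tested on simulated data with independent noise in each library. These data held no effect of the replicate number, so they cannot show how the fit handles the replicate spread seen here. Alternatives were another pseudocount, other filters, median-of-ratios scaling, a replicate block, the 6 libraries alone, leaving out each library and, added after the data were seen, leaving out replicate 1 of both courses. By the protocol the day 3 cultures were divided, but the labels do not say whether same-numbered libraries of the courses came from the same mouse. Deviations of same-numbered libraries from their group means correlated at 0.804, 0.672 and 0.504 over 10867 genes. Numbers 2 and 3 crossed at 0.68 and 0.491, so these correlations set replicate 1 apart more than 2 from 3 and do not establish a pairing.

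Named genes were the 15 largest differences in each direction (at least 5 TPM, no overlap), up to 6 members of each list by p, whole lists of receptors, S100 genes, Fc receptors and transcription factors, culture and lineage genes, and the 6 largest interactions per direction; NF-kappaB genes, Lars2 and a few further genes were chosen after their values were seen. Members and gene lists were chosen with earlier results of these data known. Positions are from GENCODE M21 (mm10), which matched 148 of 149 genes looked up, and promoter windows from RefSeq.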

Additional observations from a re-analysis of the deposited data

Results flagged for a closer look

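Differences between the courses that changed from day 5 to day 7 or between genotypes, by the interaction term of the limma fit at adjusted p under 0.05, are given for genes named at day 5 or among the largest interactions. All are changes of the macrophage minus granulocyte difference on the log2(TPM + 1) scale.

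From day 5 to day 7 in controls the difference moved toward the granulocyte course for Saa3 (-4.97), the endothelial lipase gene Lipg (-4.05), 2010005H15Rik (-3.64), the interferon-induced gene Ifitm1 (-3.42), the membrane-type metalloproteinase Mmp14 (-3.34), Ccl17 (-3.11), Il1b (-2.59), Slc39a2 (-2.30) and Gja5 (-2.21). It also did for Plet1 (-1.99), Tac4 (-1.71), Cyp4a12a (-1.70), Cox4i2 (-1.62), Snai3 (-1.39), Cyp4a12b (-1.27) and Csf3r (-1.19). Toward the macrophage course it moved for Ccl24 (3.56), Ccl7 (2.61), Tph1 (2.48), Tnip3 (2.31), Ccl2 (2.27), the chromatin protein gene Hmga2 (2.21), Akr1c18 (2.07), Tpsg1 (1.66), the taste transducin gene Gnat3 (1.65), Serpina3f (1.16), Cd34 (0.93), Fam92a (0.78) and Mustn1 (0.76). A positive change does not mean a high macrophage level at day 7: Ccl24 averaged 0.543 TPM in the macrophage and 0.907 TPM in the granulocyte course at day 7. Hmga2 averaged 5.35 ± 1.65 TPM in the macrophage and 0.46 TPM in the granulocyte course at day 7. Nor does a negative change mean a high granulocyte level at day 7, as it did for Saa3 and Il1b above. Ccl17 averaged 0.227 TPM in the macrophage and 0.607 TPM in the granulocyte course at day 7, and Cyp4a12a 0.0633 and 0.1 TPM. Many of these genes were named for large day 5 differences. The same day 5 libraries enter this test, and that choice favours a smaller difference at day 7. Leaving out granulocyte library 1 or 2 of day 7 ended the calls of 2010005H15Rik, Akr1c18, Ccl2, Ccl7, Cd34, Csf3r, Cyp4a12b, Gja5, Mustn1, Tph1 and Tpsg1, and for all of these but Ccl2, Tph1 and Tpsg1 other libraries did so too, with adjusted p from 0.0503 for Cyp4a12b to 0.114 for Ccl7. With a pseudocount of 0.1 TPM 8 of these calls were lost: Akr1c18, Cox4i2, Cyp4a12b, Mustn1, Plet1, Serpina3f, Tph1 and Tpsg1, with adjusted p from 0.0528 for Plet1 to 0.948 for Mustn1. Ccl7 was lost with a pseudocount of 5 TPM (0.0536). With median-of-ratios scaling Ccl7 (adjusted p = 0.0541) and Cd34 (0.0679) did not pass.

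Between genotypes at day 5 the difference was smaller or more negative in the knockout for Il13 (-2.25), Ccl17 (-2.08), Car2 (-1.80), Serpina3f (-1.36), the hematopoietic factor Tal1 (-1.16) and Fam92a (-1.03). It was more positive for Saa3 (2.40), Msr1 (1.46), Gnat3 (1.22) and Agpat4 (1.07). Leaving out knockout granulocyte library 2 or 3 ended every one of these 10 calls, with adjusted p of 0.11 and 0.0704 for both Saa3 and Serpina3f. Of 12 fits without 1 library, the calls of the other 8 genes were lost in 8 to 11, with adjusted p up to 0.226 for Car2, Il13 and Tal1. With a pseudocount of 0.1 TPM 5 of the 10 calls were lost, those of Car2, Gnat3, Il13, Serpina3f and Tal1, with adjusted p from 0.0613 for Tal1 to 0.3 for Il13.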

How the results depend on the processing

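The count of 382 genes (130 and 252 by direction) became 227 (76 and 151) with at least 5 TPM in 3 libraries, 1520 (623 and 897) with the replicate block, 158 (44 and 114) with the 6 libraries alone and 806 (341 and 465) without replicate 1 of either course. In the fit of the 6 libraries alone 42 named genes lost their call. Besides those marked above, they included Meis1 (limma adjusted p = 0.167), Clec5a (0.151), Ccl6 (0.119), Clec7a (0.116), Rxra (0.101), Spp1 (0.094) and Csf3r (0.0797). Leaving out 1 library gave 164 to 532 genes, 48 to 260 of them higher in the macrophage and 116 to 325 in the granulocyte course; the fewest were without granulocyte library 2 and the 260 without granulocyte library 1. The day 7 interaction, 1231 genes, gave 5424 with the block and 327 to 2059 without 1 library. The genotype interaction, 21 genes, gave 10 with a pseudocount of 0.1 TPM, 63 with no filter, 2 with at least 5 TPM, 43 with median-of-ratios scaling, 356 with the block and 0 to 56 without 1 library. Genes that changed sign were not past the threshold under the setting that turned them. Without 1 library their values ran from -0.048 to 0.63 for Cebpe, -0.19 to 0.21 for Csf2ra, -0.29 to 0.36 for Elane, -0.31 to 0.44 for Il3ra, -0.15 to 0.76 for Ltf, -0.030 to 0.36 for Mrc1, -0.67 to 0.62 for S100a8, -0.34 to 0.35 for S100a9, -0.042 to 0.104 for Spi1 and -0.16 to 0.0028 for Taf1. Without both replicates 1 they were 0.048 for Csf2ra, 0.042 for S100a9 and 0.0304 for Taf1. Fewer libraries lower the residual degrees of freedom; other causes were not tested. TPM gives no counting error, so low genes such as Car1 and Cxcr1 are the least certain.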

Other observations

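In the interferon response list 0 of 26 genes were higher in the macrophage and 1 in the granulocyte course (median -0.20; with the replicate block, 2 and 8), Irf7, the master regulator of type I interferon, at 3.02, 2.65 and 3.21 TPM against 7.20, 7.36 and 6.34 TPM (-1.01 ± 0.09 SE, limma adjusted p = 0.000286). Among 20 immediate early and AP-1 genes 0 and 2 passed (median 0.14; with the block, 3 and 2): Nr4a1 and the AP-1 subunit Junb, at 60.3, 46.1 and 48.5 TPM against 119.8, 93 and 95.1 TPM (-0.98 ± 0.12 SE, adjusted p = 0.00164). Of 14 efferocytosis genes, which serve the uptake of dying cells, 2 were higher in the macrophage course, Stab1 and the bridging ligand Gas6 (0.75, adjusted p = 0.0214), and 1 in the granulocyte course, the immunoreceptor Cd300ld, at 14.03, 14.5 and 13.9 TPM against 28.7, 25.1 and 24.8 TPM (-0.84, adjusted p = 0.000447). With the block the efferocytosis counts were 3 and 3. Gas6 did not pass without macrophage library 2 or 3 or granulocyte library 2 or 3 (0.0532 to 0.0941). Urokinase, Plau, was the 1 of 13 coagulation genes that passed (with the block, 2 in each direction), at 71.5, 94.5 and 91.9 TPM against 42.0, 46.6 and 47.8 TPM (0.90 ± 0.10 SE, adjusted p = 0.00104).

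Genes of the NF-kappaB pathway and its targets, a list of 26 chosen after values had been seen, gave 0 higher in the macrophage and 8 in the granulocyte course (median -0.27), and 12 with the block, against 2.27% and 8.07% of all genes in that direction. The choice of the list shaped this count, which supports nothing by itself. Bcl3, an atypical inhibitor of NF-kappaB, measured 3.78, 1.85 and 2.59 TPM against 17.5, 10.5 and 9.48 TPM (-1.84 ± 0.24 SE, adjusted p = 0.00194). Tnip3, described above, and Nfkbie (-0.83, adjusted p = 0.00267), Birc3 (-0.74, 0.00778), Tnip1 (-0.53, 0.016), Traf1 (-0.79, 0.0167), Nfkb2 (-0.74, 0.0261) and Relb (-1.30, 0.047) were the others. Relb and Nfkb2 did not pass without any single library other than macrophage library 1 (0.0538 to 0.167), Tnip1 without macrophage library 2 or 3 or granulocyte library 2 (0.0584 to 0.0726), nor Traf1 without macrophage library 3 or granulocyte library 2 or 3 (0.0653 to 0.0755).

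Retnla, encoding a resistin-like protein of alternatively activated macrophages, gave 19.99, 8.94 and 8.76 TPM in the macrophage and 300.1, 90.1 and 71.7 TPM in the granulocyte libraries (-3.31 ± 0.83 SE, adjusted p = 0.0598, blocked 0.000206). Chil3, encoding a chitinase-like protein of myeloid cells, gave 18398, 8077 and 7862 TPM against 30865, 13847 and 14362 TPM (adjusted p = 0.565, blocked 0.00176). In both genes replicate 1 was the highest library of each course. Lars2, the mitochondrial leucyl-tRNA synthetase gene, stood at 582 TPM in macrophage library 1, and the highest of the other 35 libraries had 36.9 TPM. No gene had at least 5 TPM in every library of one course and less than 0.5 TPM in every library of the other.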
